A study of Homo sapiens with 12 samples.

Results

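IL7R, IGF1R and the JAK-STAT5 route were followed as 9 genes in human leukaemia cells exposed to a NOTCH-blocking peptide. The 9 genes were the receptor chains IL7R and IL2RG, the receptor IGF1R, the kinases JAK1 and JAK3, the factors STAT5A and STAT5B, and the inhibitors SOCS2 and CISH. They were taken as every probe set whose platform annotation holds exactly 1 symbol and that symbol is 1 of the 9. A probe set is a group of short probes that read 1 stretch of a transcript. This gave 29 of the 54675 probe sets on the array and 9 of 19775 named genes, and all 9 genes were measured.

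The cells were KOPT-K1 and HPB-ALL, established lines of T-cell acute lymphoblastic leukaemia (T-ALL) in which NOTCH1 is active. Each line was grown with the vehicle DMSO or with 20 µM SAHM1, a stapled peptide copied from mastermind-like that was made to block the NOTCH transcription complex, and RNA was taken at 24 hours. The 4 groups held 3 cultures and 3 Affymetrix arrays each, 12 in all, and all groups were kept in the same serum-containing medium. No other cytokine, ligand or compound is named for any group, and each result rests on the 2 lines, with no control peptide.

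Interleukin-7 binds a receptor made of IL7R, its specific alpha chain, and IL2RG, the common gamma chain that several interleukin receptors share. JAK1 sits on the alpha chain and JAK3 on the gamma chain. The activated kinases phosphorylate STAT5A and STAT5B, which pair, enter the nucleus and bind DNA. CISH and SOCS2 are switched on by STAT5 and dampen the receptor, so that their transcripts are often read as a measure of STAT5 activity. IGF1R is a receptor tyrosine kinase for insulin-like growth factors that signals mainly through PI3K, AKT and RAS. Immature T cells need interleukin-7 to survive, and both IL7R and IGF1R are known in T-ALL as genes whose transcription NOTCH1 raises. The comparison asks whether blocking the NOTCH complex lowers these transcripts and those of the signalling chain behind them.

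STAT proteins bind the letters TTCNNNGAA, and the CISH promoter is a textbook STAT5 target. The sequence before its start is shown because CISH is the STAT5 readout among the 9 genes, and the sequence before the IL7R start because IL7R changed most. Capitals mark TTCNNNGAA in CISH, and in IL7R the letters CTTCCTG, the reverse complement of CAGGAAG, which is an ETS-type motif. Both are RefSeq sequences of build GRCh38.p14, 250 bases ending at the base before the start, written 5′ to 3′ on the gene's own strand. CISH lies at chr3:50611775-50612024 on the minus strand, and IL7R at chr5:35856641-35856890 on the plus strand.
CISH: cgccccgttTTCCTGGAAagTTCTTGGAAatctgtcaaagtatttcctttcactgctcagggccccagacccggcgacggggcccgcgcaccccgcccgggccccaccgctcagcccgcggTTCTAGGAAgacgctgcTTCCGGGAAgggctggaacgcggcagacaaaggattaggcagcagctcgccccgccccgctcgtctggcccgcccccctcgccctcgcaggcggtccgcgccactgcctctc
IL7R: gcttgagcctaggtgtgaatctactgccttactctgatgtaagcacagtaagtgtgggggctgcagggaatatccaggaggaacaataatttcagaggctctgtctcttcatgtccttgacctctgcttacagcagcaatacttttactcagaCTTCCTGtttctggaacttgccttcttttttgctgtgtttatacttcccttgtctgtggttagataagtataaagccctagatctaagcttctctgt

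The CISH stretch holds 4 matches, TTCCTGGAA, TTCTTGGAA, TTCTAGGAA and TTCCGGGAA, whose first bases lie at -241, -230, -129 and -112 from the start. Over RefSeq windows from 250 bases before to 50 after a start, TTCNNNGAA was present in 2689 of 35116 (7.66%), and 7 windows (0.0199%) held at least 4 matches. RefSeq entries were found for 8 of the 9 genes, with 12 windows, and CISH was the only 1 of the 8 with TTCNNNGAA in its windows. SOCS2 has no entry. TGGGAA, a core bound by the NOTCH partner RBPJ, searched on both strands with its reverse complement TTCCCA, was present in 8439 windows (24%), among them a STAT5A and the IL2RG window. CAGGAAG or CTTCCTG was present in 4463 windows (12.7%), among them those of IL7R, STAT5B, STAT5A and JAK3. A match is a run of letters and not a measured site.

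The deposited values divide each array by the average DMSO array of its line and are given here as log2 values, so that 0 is the DMSO mean of the line and -1 a level 2 times lower. Signal levels are lost in this scale, as is the difference between the lines in DMSO. Neither the rank of the 9 genes by abundance nor the labelled T-cell type could therefore be checked from levels. Changes are SAHM1 minus DMSO, ± the standard error of limma, a linear model in which each gene's variance also borrows from all other genes. Each gene has 1 variance shared by the 4 groups. A gene's value is the mean of its probe sets. Rose, fell or called mean a Benjamini-Hochberg adjusted p under 0.05 over all 19775 genes, or over all 54675 probe sets where a single probe set is given. A p-value within a line therefore also uses the spread between cultures of the other line. The labels call the cultures triplicates of each line, so the p-values cover the spread between cultures and not between leukaemias.

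Some arrays stood apart in control probe sets. The mean log2 value of 3 probe sets for 18S ribosomal RNA was 1.05, -1.01 and -1.65 in the HPB-ALL DMSO arrays and 1.73, 1.89 and 1.35 with SAHM1 (difference 2.19, exact permutation p = 0.1, two-sided). HPB-ALL DMSO replicate 1 thus lay nearest to the SAHM1 arrays in 18S, and the results in that line that it touches are also given without it. Leaving it out removes the only DMSO array of that line near the SAHM1 arrays, so the omission is no check on 18S. 18S moves with SAHM1 in HPB-ALL, and neither the omission nor 18S as a covariate can tell the 2 apart. In HPB-ALL without DMSO replicate 1, the 9 genes gave 1 further call, IL2RG, and lost 1, CISH. IL7R, JAK3, STAT5B and SOCS2 then stood at 0.10, -0.26, -0.13 and -0.07 and were not called. In KOPT-K1 the 18S difference was -0.26 (exact p = 0.2), but 18 hybridization spike probe sets were higher by 0.83 with SAHM1 (exact p = 0.1). The spike sets in HPB-ALL stood at -0.44, 0.60 and -0.48 with DMSO and at -0.31, -0.47 and -0.71 with SAHM1. DMSO replicate 2 was the high array there (difference -0.39, exact p = 0.5). The 5′ minus 3′ log2 value of ACTB, a sign of RNA integrity, had a difference of -0.17 in KOPT-K1 and -0.24 in HPB-ALL, lower with SAHM1 (exact p = 0.1 in each). The same measure for GAPDH differed by 0.009 in KOPT-K1 (exact p = 0.8) and by -0.012 in HPB-ALL (exact p = 0.7), so that the 2 measures disagreed. With 20 relabellings of 3 against 3 arrays, 0.10 is the smallest p possible. Of 9 T-lineage markers, 9 did not pass the test in KOPT-K1 (limma, 3 lower and 0 higher at an unadjusted p under 0.05). In HPB-ALL 3 fell and 1 rose, beside 4.38% and 4.96% of all genes. CD7 (-0.51), CD247 (-0.27) and LCK (-0.22) fell and CD3G (0.71) rose. These calls were kept in 15 of 21, 7 of 22, 5 of 21 and 13 of 22 alternative settings of the processing. Of 5 B-lineage markers, MS4A1 rose in KOPT-K1 (0.32, limma, adjusted p = 0.00592), beside 5.85% of all genes, and 4 did not pass. In HPB-ALL none of the 5 passed. None of 5 myeloid and 2 erythroid markers passed in either line (limma, 1 erythroid marker higher in KOPT-K1 at an unadjusted p under 0.05). The part of these controls and markers in the results was not tested.

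In KOPT-K1, IL7R, IGF1R and both STAT5 genes were lower with SAHM1. Of the 9 genes, 4 fell, these same 4, against 13.2% of all genes called lower and 5.85% called higher. The other 5 did not pass, and at an unadjusted p under 0.05 the counts were 6 lower and 0 higher (limma). The median change of the 9 genes was -0.19, beside 0.0 over all genes. In HPB-ALL, 2 of the 9 fell, STAT5A and CISH, against 4.38% of all genes called lower and 4.96% called higher, and the median was -0.15 beside -0.02. As the mean of both lines 6 of 9 fell, IL7R, IGF1R, STAT5A, STAT5B, JAK3 and IL2RG, against 8.13% of all genes. The response differed between the lines in 3 of 9, IL7R, IGF1R and STAT5A, against 16.8% of all genes.

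**Figure D1:**
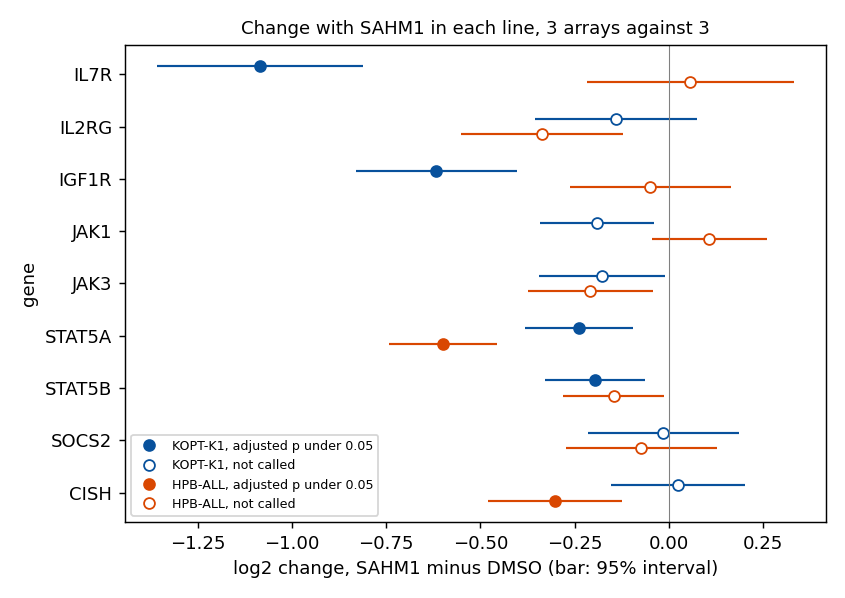
Log2 change with SAHM1 for the 9 genes in KOPT-K1 and in HPB-ALL, with 95% confidence intervals from limma (n = 3 arrays per group). IL7R and IGF1R lie below 0 in KOPT-K1 and near 0 in HPB-ALL, while STAT5A lies lower in HPB-ALL.

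IL7R was the member with the largest change. Its log2 values in KOPT-K1 were 0.02, 0.07 and -0.10 with DMSO and -1.43, -0.96 and -0.88 with SAHM1. Every SAHM1 array lay far under every DMSO array, and replicate 1 was the lowest. The gene fell by 1.08 ± 0.13, a 2.12-fold drop (limma, adjusted p = 0.0001713). In HPB-ALL the values were 0.09, -0.13 and 0.02 with DMSO and -0.10, 0.17 and 0.09 with SAHM1. These 2 groups overlapped, and the change was 0.06 ± 0.13 (adjusted p = 0.8555), with a 95% confidence interval from -0.22 to 0.33. The drop seen in KOPT-K1 lies outside that interval. The difference between the lines was 1.14 ± 0.18 (limma, adjusted p = 0.001423).

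Both IL7R probe sets behaved alike. Probe set 205798_at stood at 0.05, 0.17 and -0.25 with DMSO and at -1.31, -0.81 and -0.79 with SAHM1 in KOPT-K1, a change of -0.96 (limma, adjusted p = 0.001793). For 226218_at the DMSO arrays stood at -0.02, -0.03 and 0.05 and the SAHM1 arrays at -1.56, -1.11 and -0.96, a change of -1.21 (adjusted p = 0.0001138). In HPB-ALL the changes were 0.04 and 0.07, and neither was called. In KOPT-K1 205798_at lost its call with quantile normalization (-0.56, adjusted p = 0.2962) and with the spike covariate (-0.84, adjusted p = 0.08954). The fall of the gene in KOPT-K1 was called under all 22 alternative settings, from -1.19 to -0.63, the smallest after quantile normalization. That setting was run on ratios and gives DMSO and SAHM1 arrays the same spread of values, so it can shrink a change by construction. The IL7R difference between the lines was called in 18 of 21. The 3 losses were quantile normalization (0.68 ± 0.15, adjusted p = 0.06361), the 18S level as a covariate (1.01 ± 0.26, adjusted p = 0.08325) and the spike level as a covariate (1.10 ± 0.28, adjusted p = 0.08509). With either covariate the standard error was larger than the 0.18 of the main fit.

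**Figure D2:**
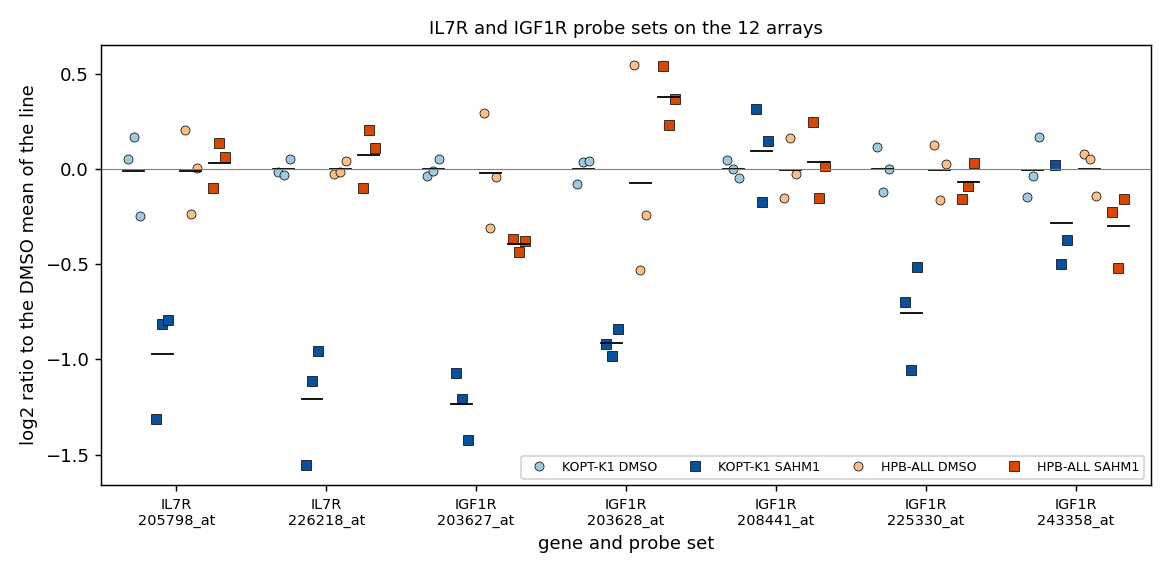
Log2 ratio to the line's DMSO mean on each array for the 2 IL7R and the 5 IGF1R probe sets, with 3 arrays per group and the group mean as a bar. In KOPT-K1 the SAHM1 arrays of both IL7R sets and of 3 IGF1R sets lie below the DMSO arrays, and the other 2 IGF1R sets, at -0.28 and 0.10 on average, overlap the DMSO arrays.

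IGF1R also fell in KOPT-K1. Its values were -0.02, -0.03 and 0.04 with DMSO and -0.47, -0.78 and -0.60 with SAHM1. The groups did not overlap, and the change was -0.62 ± 0.10, a 1.53-fold drop (limma, adjusted p = 0.00128). HPB-ALL gave 0.18, -0.16 and -0.09 with DMSO and 0.01, -0.19 and -0.03 with SAHM1. Here the groups overlapped, with a change of -0.05 ± 0.10 (adjusted p = 0.8393) and an interval from -0.26 to 0.16. The lines differed by 0.57 ± 0.14 (limma, adjusted p = 0.01522), and by 0.67 without HPB-ALL DMSO replicate 1 (adjusted p = 0.004219).

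Of the 5 IGF1R probe sets, 3 were called in KOPT-K1. Probe set 203627_at, at -1.07, -1.21 and -1.43 with SAHM1, changed by -1.24 (limma, adjusted p = 0.0001028). Next came 203628_at, at -0.92, -0.98 and -0.84 and a change of -0.91 (adjusted p = 0.009312). For 225330_at the arrays stood at -0.70, -1.05 and -0.52, a change of -0.75 (adjusted p = 0.002415). The sets 243358_at and 208441_at gave -0.28 and 0.10 and were not called. Without KOPT-K1 SAHM1 replicate 1, 243358_at stood at -0.43 and passed (limma, adjusted p = 0.04685). The gene value, a mean over all 5, is thus smaller than the change of the 3 sets that were called.

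In HPB-ALL the IGF1R probe sets diverged. There 203627_at stood at 0.29, -0.31 and -0.04 with DMSO and at -0.37, -0.44 and -0.38 with SAHM1, a change of -0.37 (limma, adjusted p = 0.1343). By contrast 203628_at stood at 0.55, -0.53 and -0.24 with DMSO and at 0.54, 0.23 and 0.37 with SAHM1, a change of 0.45 (adjusted p = 0.2526). Its high DMSO value came from replicate 1, the array with high 18S. Without that replicate the change was 0.76 (adjusted p = 0.002182), and with 18S as a covariate it was -0.27 (adjusted p = 0.9842). For the gene in KOPT-K1 the call was lost in 2 of 22 settings, quantile normalization (-0.36, adjusted p = 0.1791) and the spike level as a covariate (-0.46, adjusted p = 0.08347). The difference between the lines lost its call with quantile normalization (0.32), 18S (0.34) and spikes (0.34), with adjusted p of 0.3602, 0.3941 and 0.4328.

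IL2RG, the common gamma chain, rested on 1 probe set. In KOPT-K1 it stood at -0.01, 0.01 and 0.00 with DMSO and at -0.10, -0.16 and -0.17 with SAHM1, a change of -0.14 ± 0.10 that did not pass (limma, adjusted p = 0.3552). In HPB-ALL it stood at -0.18, 0.02 and 0.15 with DMSO and at -0.11, -0.46 and -0.46 with SAHM1. The SAHM1 replicate 1 array overlapped the DMSO arrays, and the change was -0.34 ± 0.10 (adjusted p = 0.05178). It passed without HPB-ALL DMSO replicate 1 (-0.43, adjusted p = 0.01905) and without SAHM1 replicate 1 (-0.45, adjusted p = 0.01267), and in 3 of 22 settings in all. With 18S as a covariate it was -0.10 (limma, adjusted p = 0.9499). The mean of both lines, -0.24 ± 0.07, passed (limma, adjusted p = 0.04578), but that call was kept in 5 of 21 settings. Leaving out any array other than HPB-ALL DMSO replicate 1 or SAHM1 replicate 1 ended it (adjusted p from 0.05788 to 0.1166).

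The receptor kinases did not pass the test in either line in the main fit. JAK1 in KOPT-K1 stood at 0.04, -0.04 and -0.01 with DMSO and at -0.16, -0.16 and -0.25 with SAHM1, a change of -0.19 ± 0.07 without a call (limma, adjusted p = 0.07769). JAK1 was called lower there in 3 of 22 settings. These were the median over probe sets (limma, adjusted p = 0.0428) and the fits without HPB-ALL DMSO replicate 1 or 2 (adjusted p = 0.04459 and 0.04806). In HPB-ALL its SAHM1 arrays, at 0.06, 0.13 and 0.08, overlapped the DMSO arrays, at 0.13, -0.14 and -0.03, and the change was 0.11 ± 0.07 (adjusted p = 0.4271). The difference between the lines, 0.30 ± 0.10, did not pass (limma, adjusted p = 0.05863), and without HPB-ALL DMSO replicate 1 it was 0.37 (adjusted p = 0.0161). With the 18S covariate it was 0.12 (limma, adjusted p = 0.7) and with spikes 0.09 (adjusted p = 0.7836), and it passed in 2 of 21 settings.

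Among JAK1 probe sets, the largest changes were those of 1552611_a_at. In HPB-ALL it stood at 0.52, -0.34 and -0.37 with DMSO and at 0.70, 0.76 and 0.55 with SAHM1. The DMSO array at 0.52 was replicate 1, the one with high 18S. The set rose by 0.73 (limma, adjusted p = 0.04208), while in KOPT-K1 it was at -0.51 (adjusted p = 0.09313). With 18S as a covariate the HPB-ALL change was -0.03 (adjusted p = 0.9988), and without DMSO replicate 1 it was 1.03 (adjusted p = 0.0002609). Leaving out any other HPB-ALL array ended the call (adjusted p from 0.08181 to 0.1863). So did leaving out KOPT-K1 DMSO replicate 1, 2 or 3 or SAHM1 replicate 2, which enter only through the shared variance (limma, adjusted p from 0.05324 to 0.05893). The call was also lost with quantile normalization, the spike covariate, the arrays of HPB-ALL alone and the replicate number as a block. Another JAK1 set, 1552610_a_at, fell by 0.39 in KOPT-K1 (adjusted p = 0.01521) and stood at -0.17 in HPB-ALL. That fall lost its call without KOPT-K1 DMSO replicate 1 (adjusted p = 0.0651) and without SAHM1 replicate 2 or 3 (limma, adjusted p = 0.05036 and 0.05108). The 3 other sets gave -0.21 to 0.09 in KOPT-K1 and -0.14 to 0.23 in HPB-ALL, without a call.

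**Figure D3:**
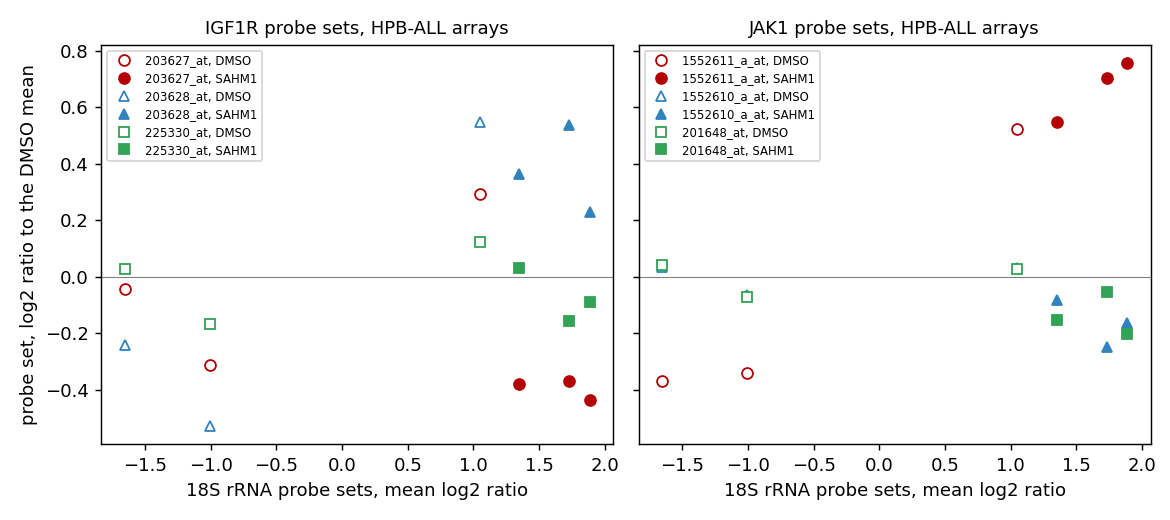
Log2 values of IGF1R and JAK1 probe sets on the 6 HPB-ALL arrays (vertical axis) against the mean log2 value of the 3 18S probe sets on the same array (horizontal axis). The DMSO array at 1.05 in 18S is replicate 1, and 203628_at and 1552611_a_at stand at 0.55 and 0.52 on it, near their SAHM1 values.

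JAK3, the kinase on the gamma chain, was lower in both lines by an amount that passed only as the mean of both. In KOPT-K1 it stood at -0.05, 0.03 and 0.01 with DMSO and at -0.20, -0.09 and -0.25 with SAHM1, and in HPB-ALL at -0.10, 0.07 and 0.02 and at -0.08, -0.22 and -0.34. The changes were -0.18 ± 0.08 and -0.21 ± 0.08 (limma, adjusted p = 0.1268 and 0.1206). The mean was -0.19 ± 0.05 (adjusted p = 0.0377), called in 6 of 21 settings. Leaving out any array other than HPB-ALL DMSO replicate 1, HPB-ALL SAHM1 replicate 1 or KOPT-K1 SAHM1 replicate 2 ended it (adjusted p from 0.05313 to 0.09023). Its 4 probe sets spanned -0.46 to 0.10 in KOPT-K1 and -0.43 to -0.10 in HPB-ALL, and none was called. Without KOPT-K1 SAHM1 replicate 2, 227677_at went from -0.46 to -0.71 and passed (limma, adjusted p = 0.008952).

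STAT5A was the only 1 of the 9 genes called in both lines. In HPB-ALL it stood at -0.05, 0.06 and -0.01 with DMSO and at -0.63, -0.56 and -0.60 with SAHM1. The groups did not overlap, and the SAHM1 arrays lay close together. The fall was -0.60 ± 0.07, or 1.52-fold (limma, adjusted p = 0.000244), and without DMSO replicate 1 it was -0.62 (adjusted p = 0.0005728). In KOPT-K1 it stood at -0.02, 0.04 and -0.02 with DMSO and at -0.13, -0.36 and -0.22 with SAHM1, a fall of -0.24 ± 0.07, or 1.18-fold (adjusted p = 0.02498). The response was larger in HPB-ALL by -0.36 ± 0.09 (limma, adjusted p = 0.01981), the opposite order to IL7R and IGF1R.

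The STAT5A values rest on the single probe set 203010_at. Among all probe sets its HPB-ALL change kept its call (limma, adjusted p = 0.001391), while the KOPT-K1 change (adjusted p = 0.05927) and the difference (adjusted p = 0.05137) did not. At the gene level the HPB-ALL call was kept in 21 of 22 settings and lost with the 18S level as a covariate (-0.54 ± 0.11, adjusted p = 0.09329). The KOPT-K1 call was kept in 15 of 22. It was lost without KOPT-K1 DMSO replicate 1, 2 or 3 (adjusted p = 0.05682, 0.08312 and 0.0504) and without SAHM1 replicate 2 (-0.18, adjusted p = 0.09314). It was also lost with quantile normalization (-0.15, adjusted p = 0.46), the spike covariate (-0.27, adjusted p = 0.1523) and the arrays of KOPT-K1 alone (adjusted p = 0.08054). The difference lost its call with quantile normalization (-0.43, adjusted p = 0.06133), 18S (-0.30, adjusted p = 0.308) and spikes (-0.31, adjusted p = 0.3052). The mean of both lines, -0.42 ± 0.05 (limma, adjusted p = 0.0001674), was called in 21 of 21.

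STAT5B, the close relative that lies next to STAT5A on chromosome 17, changed less. In KOPT-K1 it stood at 0.04, -0.02 and -0.02 with DMSO and at -0.17, -0.14 and -0.28 with SAHM1, and in HPB-ALL at 0.03, 0.01 and -0.04 and at -0.08, -0.23 and -0.14. The SAHM1 arrays lay under the DMSO arrays in both lines, by small amounts. The gene fell in KOPT-K1 by -0.20 ± 0.06 (limma, adjusted p = 0.04317). In HPB-ALL the change was -0.15 ± 0.06 (adjusted p = 0.1784). The KOPT-K1 call was kept in 7 of 22 settings, and leaving out any KOPT-K1 array ended it (adjusted p from 0.05083 to 0.1337). Of its 5 probe sets, 205026_at (-0.48, adjusted p = 0.005409) and 212550_at (-0.41, adjusted p = 0.02659) were called in KOPT-K1, and 212549_at stood at -0.28 (adjusted p = 0.05743). The call of 212550_at was lost without DMSO replicate 1 or 2 and without SAHM1 replicate 1 or 2 (limma, adjusted p from 0.06295 to 0.08997). The sets 1555086_at and 1555088_x_at were at 0.15 and 0.05.

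**Figure D4:**
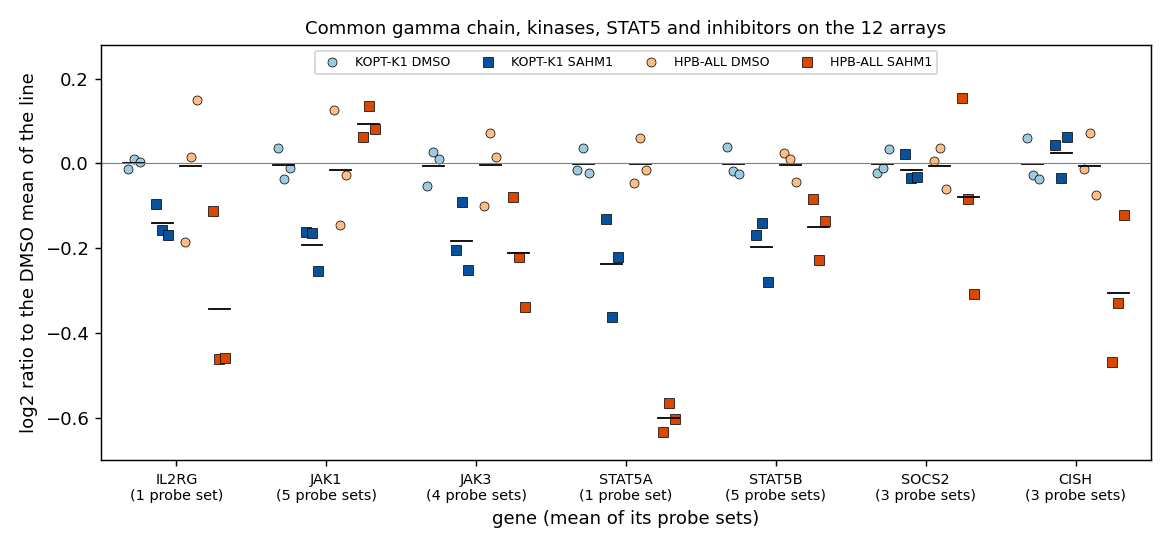
Log2 ratio to the line's DMSO mean on each of the 12 arrays for IL2RG, JAK1, JAK3, STAT5A, STAT5B, SOCS2 and CISH, each the mean of its probe sets, with group means as bars. The HPB-ALL SAHM1 arrays of STAT5A lie between -0.63 and -0.56, and those of CISH between -0.47 and -0.12.

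The feedback inhibitors CISH and SOCS2 were not called in KOPT-K1. CISH in KOPT-K1 stood at 0.06, -0.03 and -0.04 with DMSO and at 0.04, -0.03 and 0.06 with SAHM1. The groups overlapped, and the change was 0.03 ± 0.08 (limma, adjusted p = 0.8661), with an interval from -0.15 to 0.20. In HPB-ALL CISH stood at -0.01, 0.07 and -0.08 with DMSO and at -0.47, -0.33 and -0.12 with SAHM1. It fell there by -0.30 ± 0.08, or 1.23-fold (limma, adjusted p = 0.0376). The difference between the lines, -0.33 ± 0.12, did not pass (adjusted p = 0.07455). STAT5 activity was not measured, and any link of CISH or SOCS2 to the IL7R change was not tested.

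The CISH call in HPB-ALL was kept in 8 of 21 settings. It was lost without SAHM1 replicate 1 (-0.22, adjusted p = 0.1441), without SAHM1 replicate 2 (-0.29, adjusted p = 0.1222) and without DMSO replicate 1, 2 or 3 (limma, adjusted p = 0.06778, 0.1438 and 0.06224). Without KOPT-K1 DMSO replicate 2 or 3, which enter only through the shared variance, adjusted p was 0.05267 and 0.05038. Its 3 probe sets gave -0.26, -0.25 and -0.39 in HPB-ALL and none was called alone. All 3 carry the suffix _x_at or _s_at, which marks probes that can match more than 1 transcript.

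SOCS2 stood at -0.02, -0.01 and 0.03 with DMSO and at 0.02, -0.04 and -0.03 with SAHM1 in KOPT-K1, a change of -0.01 ± 0.09 (limma, adjusted p = 0.9362) with an interval from -0.21 to 0.19. In HPB-ALL the SAHM1 arrays spread from 0.15 over -0.08 to -0.31, around DMSO arrays at 0.01, 0.04 and -0.06, and the change was -0.07 ± 0.09 (adjusted p = 0.7245). The gene mean hides probe sets that disagreed. In HPB-ALL 203373_at fell by 0.40 (limma, adjusted p = 0.04605) while 203372_s_at stood at 0.18, and in KOPT-K1 232539_at stood at 0.33 (adjusted p = 0.0888) while 203373_at stood at -0.22. The call of 203373_at was lost without HPB-ALL SAHM1 replicate 3 (-0.29, adjusted p = 0.1716) and under most other settings.

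Counted as probe sets, 8 of 29 fell in KOPT-K1, against 9.79% of all probe sets called lower. They were both IL7R sets, 3 of IGF1R, 1 of JAK1 and 2 of STAT5B. In HPB-ALL 2 of 29 fell, against 2.06% of all, 1 each of STAT5A and SOCS2, and 1 rose, of JAK1, against 3.09% of all called higher. Where a set differed between the lines, the HPB-ALL change was the higher one in 6 sets, both of IL7R, 3 of IGF1R and 1 of JAK1, against 8.5% of all probe sets with a higher change in HPB-ALL.

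The other genes of the pathway were read from 8 lists compiled from general knowledge, whose counts are to be read beside the same shares of all genes. The lists were chosen with earlier results of these data known. Among receptors and ligands of the gamma-chain family, 3 of 13 fell in KOPT-K1, beside 13.2% of all genes, and 10 did not pass. IL2RB, the beta chain for interleukins 2 and 15, which also signals through JAK1 and STAT5, fell by 0.42 ± 0.11 (limma, adjusted p = 0.01513). The ligands TSLP, which also uses IL7R, and IL15 stood at -0.35 and -0.24. In HPB-ALL the receptor IL4R (-0.42) and its ligand IL4 (-0.43) fell, and TSLP (0.44) rose, beside 4.38% and 4.96% of all genes. The IL4R call was kept in 12 of 22 settings and not made for its single probe set. Of 5 other Janus kinases and STATs, STAT4 fell in KOPT-K1 (-0.25), a call kept in 10 of 22 settings and not made for its single probe set, and STAT6, which carries the interleukin-4 signal, fell in HPB-ALL by 0.53 ± 0.09 (limma, adjusted p = 0.003213) in both of its probe sets.

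Of 18 negative regulators of JAK-STAT signalling, 5 fell in KOPT-K1, beside 13.2% of all genes. In HPB-ALL 2 rose and 1 fell, beside 4.96% and 4.38%. The test of the difference called 7 with a higher change in HPB-ALL and 1 with a lower one, beside 16.8% of all genes in either direction, and 10 were not called. SOCS7, a relative of CISH, fell by 0.54 ± 0.06 in KOPT-K1 with 3 of 3 probe sets called and rose by 0.26 ± 0.06 in HPB-ALL, where none of the 3 sets was called alone and the gene's call held in 15 of 22 settings. The ubiquitin ligase CBL, which removes active receptors, fell by 0.50 ± 0.07 and rose by 0.35 ± 0.07. These differences between the lines, 0.80 ± 0.09 for SOCS7 and 0.85 ± 0.10 for CBL (limma, adjusted p = 0.0001494 and 0.0002684), were called in 21 of 21 settings for each gene. The phosphatase PTPN6, which acts on JAKs, fell in HPB-ALL (-0.45), a call kept in 14 of 21 settings.

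Among 12 genes known as STAT5 targets, 3 fell in KOPT-K1 and 2 in HPB-ALL, beside 13.2% and 4.38% of all genes, and the others did not pass. OSM, a cytokine gene with a well-known STAT5 element, fell in both lines, by 0.76 ± 0.10 in KOPT-K1 (limma, adjusted p = 0.0004238) and 0.38 ± 0.10 in HPB-ALL (adjusted p = 0.03629). Its KOPT-K1 call was kept in 21 of 22 settings and its HPB-ALL call in 11 of 22. In HPB-ALL neither of the 2 OSM probe sets was called alone. The kinase gene PIM1 (-0.33) and the survival gene BCL2 (-0.24) fell in KOPT-K1, with calls kept in 11 and 8 of 22. Neither the single PIM1 probe set nor any of the 4 BCL2 sets was called alone. CCND2, a D-type cyclin, fell in HPB-ALL by 0.33 ± 0.05, with 1 of 4 probe sets called. The list medians were -0.08 and -0.10, beside 0.0 and -0.02 over all genes.

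On the IGF side, 2 of 11 ligands, receptors and binding proteins fell in KOPT-K1 and 1 rose, beside 13.2% and 5.85% of all genes. In HPB-ALL 1 fell and 1 rose, beside 4.38% and 4.96%. IGFBP2, a secreted protein that binds insulin-like growth factors, fell in both lines, by 0.54 ± 0.11 (limma, adjusted p = 0.004115) and 0.78 ± 0.11 (adjusted p = 0.0008331). The insulin receptor INSR, the closest relative of IGF1R, fell by 0.30 ± 0.07 in KOPT-K1 and rose by 0.25 ± 0.07 in HPB-ALL, a difference of 0.55 ± 0.09 (limma, adjusted p = 0.00209). The INSR call in HPB-ALL was kept in 12 of 22 settings, with 2 of 5 probe sets called. IGFBP3 rose in KOPT-K1 (0.39). Of 21 adaptors and PI3K-AKT genes, 6 fell and 1 rose in KOPT-K1, beside 13.2% and 5.85% of all genes. In HPB-ALL 1 of these fell and 4 rose, beside 4.38% and 4.96%. PIK3R1, a regulatory PI3K subunit, stood at -0.38 and 0.39, and the adaptor GAB2 at -0.30 and 0.52, all called. The PIK3R1 call in HPB-ALL was kept in 13 of 22 settings, and 1 of its 3 probe sets was called there. AKT1 fell in HPB-ALL (-0.50).

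FOXO factors, which AKT holds out of the nucleus and which activate IL7R in T cells, were counted with their targets. Of 10, 2 fell in KOPT-K1, beside 13.2% of all genes. These were FOXO3 (-0.37 ± 0.07, limma, adjusted p = 0.002965) and TXNIP (-0.50). In HPB-ALL 2 of the 10 rose and 1 fell, beside 4.96% and 4.38% of all genes. TXNIP (1.30) and the cell-cycle inhibitor CDKN1B (0.31) rose. KLF2 fell there (-0.43) with 1 of 2 probe sets called, and stood at 0.09 without probe sets of the suffixes _x_at and _s_at.

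Transcription factors known to act on IL7R itself gave the highest share of falls in KOPT-K1 among the 8 lists, 7 of 10 beside 13.2% of all genes. This list was chosen with earlier results of these data known, so its share is a description. Any link to the fall of IL7R was not tested. MYB fell by 0.66 ± 0.07 in both of its probe sets (limma, adjusted p = 9.313e-05), and ETS1, a factor of the ETS family, by 0.47 ± 0.09 (adjusted p = 0.003112). FOXP1 (-0.23), which competes with FOXO at IL7R, and RUNX3 (-0.24) fell as well. In HPB-ALL 3 of 10 rose and 1 fell, beside 4.96% and 4.38% of all genes. The IL7R repressor GFI1 (0.38), the glucocorticoid receptor NR3C1 (0.32) and the ETS factor GABPA (0.29) rose, and RUNX3 (-0.34) fell. The NR3C1 call was kept in 15 of 22 settings. The GABPA call was kept in 14 of 22 settings, and neither of its 2 probe sets was called alone. The difference between the lines was called in 6 of 10, each with the higher change in HPB-ALL. Of all genes 16.8% were called in either direction, and 2253 of 19775 with the higher change in HPB-ALL. MYB led the 6 (0.71 ± 0.10, limma, adjusted p = 0.0007767). The HPB-ALL calls in all these lists were made on arrays that also differ in 18S, and with 18S as a covariate 52 genes in all were called in that line instead of 1846. Because 18S moves with SAHM1 in that line, the covariate cannot separate them. It also widened the standard error, for STAT5A from 0.07 to 0.11 with a change of -0.54 after -0.60.

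The genes whose values over the 12 arrays lay closest to IL7R were FAM107B, NLGN4X, EPRS1, ALKBH8 and XPOT, with root mean square differences of 0.0871, 0.1264, 0.1292, 0.135 and 0.1374 in log2. Their changes in KOPT-K1 were -1.16, -1.19, -1.07, -1.003 and -1.07. EPRS1 is an aminoacyl-tRNA synthetase and XPOT exports transfer RNA from the nucleus. Closest to IGF1R were RBM14, RBFA, WASHC5, MICALL1 and CEMIP2, at 0.0688, 0.0732, 0.0862, 0.0872 and 0.0887, with KOPT-K1 changes from -0.66 to -0.57. All 10 were chosen by this likeness from the same arrays, so their changes are a description.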

How the data were processed

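RNA from 12 cultures of 2 human T-ALL lines was read on Affymetrix U133 Plus 2.0 arrays, 3 per group. Per the submitters' processing notes the authors used RMA, with version and annotation not given in the sources used here. Each deposited value is a ratio on a linear scale: the 3 DMSO arrays of a line averaged 1 in all 54675 probe sets of both lines (tolerance 1e-06), and values ran from 0.0827 to 6.98. Such ratios set every DMSO mean to 0 in log2 and remove signal levels, so no filter on low values could be made. Arrays give no depth, and their number limits the precision (the standard error of a gene had a median of 0.08).

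Log2 values, taken with no pseudocount, were averaged over probe sets with the same single symbol in the platform annotation (41097 with 1 symbol, 1801 with several, 11777 not listed), which gave 19775 genes. Of the 41097, 41043 had a match among current symbols, with 0 changes. limma 3.58.1 in R 4.3.3 (lmFit, eBayes, two-sided) was fitted to all 12 arrays with 4 groups (8 residual degrees of freedom, 12.6 after moderation) and tested on simulated data. P-values were adjusted by Benjamini-Hochberg over all genes or all probe sets, with a threshold of 0.05. Single technical measures were compared by exact permutation. Same-numbered arrays of a line did not deviate together (correlations from -0.012 to 0.060), so the replicate numbers were not used as a block.

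The members and the gene lists were chosen with earlier results of these data known. The lists held 135 genes, of which 16 were not analysed here. The genes named were the 9 members, from each list up to 4 called genes per comparison with the smallest p, and the 5 genes nearest to IL7R and to IGF1R. Alternatives changed the probe-set summary, the normalization, the covariates, the arrays in the fit and the variance model, and left out each array in turn.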

Additional observations from a re-analysis of the deposited data

Results flagged for a closer look

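The response to SAHM1 differed between the lines, by limma's test of the HPB-ALL change minus the KOPT-K1 change, in 3 of the 9 genes. For IL7R the difference was 1.14 (KOPT-K1 -1.08, HPB-ALL 0.06) and for IGF1R 0.57 (-0.62 and -0.05). STAT5A differed the other way, by -0.36 (-0.24 and -0.60). Single probe sets gave 1.01 for IL7R 205798_at and 1.28 for IL7R 226218_at. The IGF1R sets 203627_at, 203628_at and 225330_at gave 0.86, 1.37 and 0.69. JAK1 1552611_a_at gave 1.24, with a HPB-ALL change of 0.73 that becomes -0.03 with 18S as a covariate. In HPB-ALL the 18S level was higher by 2.19 with SAHM1, and in KOPT-K1 the spike level was higher by 0.83. Their part in these differences was not tested beyond the covariate values given here and above.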

How the results depend on the processing

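The number of the 9 genes called in KOPT-K1 was 4, and it became 1 with quantile normalization, 1 with the spike level as a covariate and 2 with the arrays of that line alone. In HPB-ALL the number was 2. It became 1 with the median over probe sets, without _x_at and _s_at probe sets, with quantile normalization, the spike covariate, the line's arrays alone or the replicate block, and 0 with the 18S covariate (limma, 1 at an unadjusted p under 0.05). The mean of both lines gave 6, then 1 with quantile normalization and 3 with 18S. The difference gave 3, and 0 with quantile normalization, 18S or spikes (limma, 3, 1 and 2 at an unadjusted p under 0.05). For KOPT-K1 probe sets 8 became 1 with quantile normalization and 2 with spikes. For HPB-ALL probe sets 3 became 1 with quantile normalization, the line's arrays alone or the block, 5 with array weights, and 0 with 18S (limma, 3 at an unadjusted p under 0.05). Leaving out 1 array at a time gave 2 to 5 genes in KOPT-K1, 1 to 2 in HPB-ALL, 3 to 6 for the mean and 3 to 4 for the difference, and 6 to 10 and 1 to 6 probe sets. Quantile normalization gives the ratios of DMSO and SAHM1 arrays the same spread, so calls lost under it cannot be told from that effect. The 18S level moves with SAHM1 in HPB-ALL, so the 18S covariate cannot separate them. The cause of the changes in these counts was not tested.

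The replicate block gave 3, 1, 4 and 3 genes and 8 and 1 probe sets, and 7 of 12 arrays correlated best with their own number in the other treatment of the line. Over all genes, calls in KOPT-K1 went from 3761 to 136 with quantile normalization, 709 with spikes and 2498 without _x_at and _s_at sets, and the lower share from 69.3% to 81.6% with quantile normalization. In HPB-ALL they went from 1846 to 52 with 18S, 417 with quantile normalization, 1019 without _x_at and _s_at sets and 1030 with spikes, and the lower share from 46.9% to 66.9% with quantile normalization and 36.7% without those sets. Leaving out any HPB-ALL array other than DMSO replicate 1 took the HPB-ALL count to between 913 and 1124.

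Of 4515 tested values under alternatives, 3745 kept their direction and side of the threshold, 79 changed sign without passing it in either setting, 656 lost a call, 29 gained one and 6 reversed. Reversed were JAK1 1552611_a_at (-0.0279) and CD3G (-0.0184) in HPB-ALL with 18S. Without _x_at and _s_at sets, INPP5D reversed for the mean (0.0721), and KLF2 in HPB-ALL (0.0898), for the mean (0.0551) and for the difference (0.0693). A filter on low values was not run, since ratios hold no levels.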
